A study of Mus musculus with 6 samples.

Results

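The Schlafen family of the mouse was followed in thymus RNA, probe set by probe set. Its members were every probe set on the array whose annotation gives exactly 1 gene symbol, where that symbol is Slfn1, Slfn2, Slfn3, Slfn4, Slfn5, Slfn8 or Slfn9. This gave 11 probe sets for 7 genes, out of 45101 probe sets and 18193 gene symbols on the array. Slfn5 was read by 3 of the probe sets, Slfn1 and Slfn9 by 2 each, and the 4 other genes by 1 each. Slfn14 was not analysed here.

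Total RNA from the thymus of adult female mice of 2 F1 crosses was hybridised to single-channel Affymetrix arrays, with 3 arrays per cross. The AKR cross is (AKR/J x FVB/NJ)F1 and the DBA cross is (DBA/2J x FVB/NJ)F1. Every animal therefore carries 1 set of FVB/NJ chromosomes, and the crosses differ in the other parent's set. No treatment other than anaesthesia before death is given in the labels, and the study asked which genes differ at baseline between the genotypes. Nothing in the labels states that the arrays of a cross came from separate animals, so SEs and p-values measure only how far these samples vary, and that variation may be technical.

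Values are log2 signals as the authors deposited them, and a difference is always the mean of the AKR cross minus the mean of the DBA cross, so that a negative value is higher in the DBA cross. The arrays were alike in scale, with medians from 5.92 to 5.95, and correlated at 0.994 to 0.996 within a cross and 0.984 to 0.989 between crosses over all probe sets. Markers that define thymocytes stood high on all 6 arrays: over 13 tested genes their mean level ran from 11.65 to 11.79 in the AKR cross and from 11.66 to 11.68 in the DBA cross. A probe set was tested if 3 or more of the 6 arrays read it above their own 40th percentile, and called where limma, fitted over all 27385 tested probe sets, gave a Benjamini-Hochberg adjusted p under 0.05. A called probe set or gene is termed DBA-high or AKR-high after the cross in which it was higher. Precision is limited by there being 3 arrays a cross. The family was chosen by the measured difference of its genes between these same crosses, so its differences are a description, given with their standard error (SE) and without p-values.

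Schlafen proteins are regulators of growth and of antiviral defence in immune cells. They share an N-terminal core and fall into a short group (Slfn1 and Slfn2), an intermediate group (Slfn3 and Slfn4) and a long group with a helicase-like C-terminal part (Slfn5, Slfn8 and Slfn9). Many of them are induced by type I interferon, and in the T cell lineage Slfn1 and Slfn2 are linked to growth arrest and to the quiescence of mature cells. The genes lie side by side on chromosome 11, in the order Slfn5, Slfn9, Slfn8, the pseudogene Slfn10-ps, Slfn2, Slfn1, Slfn4, Slfn3 and Slfn14.

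The promoters of the long genes held an interferon motif with no match in those of the other members. RefSeq promoter windows (build GRCm38.p6, 250 bases before to 50 after the start of the gene, C57BL/6J sequence, which is the sequence of neither cross) were found for all 7 genes. The interferon-stimulated response element, searched on both strands as TTTC, any 2 bases and TTTC again, was present in Slfn5, Slfn8 and Slfn9 and had no match in the windows of Slfn1, Slfn2, Slfn3 and Slfn4. It is held by 3.44% of all 32851 windows. The windows of the long group are shown with Slfn1 because these genes were DBA-high on their brightest probe set. The tested probe sets of Slfn5 were called in opposite directions, as described below. They lie at chr11:82951852-82952151 (Slfn5, plus strand), chr11:82991781-82992080 (Slfn9, minus strand), chr11:83020761-83021060 (Slfn8, minus strand) and chr11:83116570-83116869 (Slfn1, plus strand). Capitals mark the response element in Slfn5, Slfn9 and Slfn8, and in Slfn1 the letters ACTTCCTGG.
Slfn5: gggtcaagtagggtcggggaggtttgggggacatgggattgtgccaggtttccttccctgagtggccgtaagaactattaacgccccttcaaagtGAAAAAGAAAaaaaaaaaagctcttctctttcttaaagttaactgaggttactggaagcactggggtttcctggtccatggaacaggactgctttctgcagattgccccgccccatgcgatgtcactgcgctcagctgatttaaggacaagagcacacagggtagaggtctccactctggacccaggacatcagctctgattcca
Slfn9: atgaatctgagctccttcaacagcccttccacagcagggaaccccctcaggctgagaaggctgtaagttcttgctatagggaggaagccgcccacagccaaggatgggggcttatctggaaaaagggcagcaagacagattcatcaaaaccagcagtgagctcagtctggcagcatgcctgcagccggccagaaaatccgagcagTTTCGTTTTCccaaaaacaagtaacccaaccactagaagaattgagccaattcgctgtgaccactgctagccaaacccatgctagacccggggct
Slfn8: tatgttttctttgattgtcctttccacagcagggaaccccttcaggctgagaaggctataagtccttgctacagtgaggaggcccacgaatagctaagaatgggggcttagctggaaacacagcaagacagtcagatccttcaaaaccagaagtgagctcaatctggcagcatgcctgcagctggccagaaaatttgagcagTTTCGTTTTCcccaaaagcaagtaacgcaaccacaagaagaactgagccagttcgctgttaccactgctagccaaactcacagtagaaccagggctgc
Slfn1: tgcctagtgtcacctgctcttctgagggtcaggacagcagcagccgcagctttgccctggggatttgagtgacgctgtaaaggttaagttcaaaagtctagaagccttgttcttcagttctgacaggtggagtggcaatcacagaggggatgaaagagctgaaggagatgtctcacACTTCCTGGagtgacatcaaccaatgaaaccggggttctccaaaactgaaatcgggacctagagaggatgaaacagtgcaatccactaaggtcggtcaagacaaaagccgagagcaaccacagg

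The response element starts 45 bases before the gene start in Slfn9 and, on the opposite strand, 155 bases before it in Slfn5. Slfn8 has 2 windows with different starts, of which the first is shown, and the same element lies 48 bases before the first start and 136 before the other. The windows of Slfn8 and Slfn9 were 80.8% identical in a global alignment, whereas the 20 other pairs of the 7 windows ran from 46.8% to 53.0%. The gamma-activated site, searched as TTCNNNGAA on both strands, had no match in any member and is held by 8.30% of all windows. The RUNX site TGTGGT, likewise on both strands, was matched across the groups, in Slfn8, 19 or 107 bases before its starts, and in Slfn1, at base 43 after it, and is held by 16.8% of all windows. No match overlapped another.

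The short and intermediate genes shared another run of letters. ACTTCCTGG, which holds the TTCC core read by ETS factors, lies before the start of Slfn1, Slfn2, Slfn3 and Slfn4 and was searched only after these sequences had been seen. It is held by 0.843% of all windows on either strand. It starts 74, 55, 42 and 73 bases before the start of Slfn1, Slfn2, Slfn3 and Slfn4. The stretches of 40 bases around it are shown for comparison with the Slfn1 window above, at chr11:83065042-83065081 (Slfn2), chr11:83175098-83175137 (Slfn4) and chr11:83191273-83191312 (Slfn3), all on the plus strand, with the shared letters in capitals.
Slfn2: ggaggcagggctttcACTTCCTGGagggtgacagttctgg
Slfn4: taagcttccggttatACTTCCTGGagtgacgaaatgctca
Slfn3: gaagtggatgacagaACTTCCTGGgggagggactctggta

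A match is a description of the reference letters and not evidence that a factor binds there.

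The genes Slfn1, Slfn8, Slfn5 and Slfn9 were higher in the DBA cross on their brightest probe set, by 2.58-fold, 2.41-fold, 1.78-fold and 1.53-fold. Slfn2, Slfn3 and Slfn4 had groups that overlapped. Of the 11 probe sets, 8 were tested, 7 of them above the 40th percentile on all 6 arrays. Of these 8, 4 were DBA-high, 1 was AKR-high and 3 were not called. Over all tested probe sets, 27.2% were called, 15% as DBA-high and 12.2% as AKR-high. The larger share turns with quantile normalization of the arrays, which gave 3752 DBA-high and 4298 AKR-high probe sets, and is near even with median centring (3763 and 3619). The Schlafen counts of 4 and 1 stayed as they were under both, and nothing is read from the comparison with all probe sets because the same contrast chose the family. The median difference of the 8 was -0.44, against 0.01 over all tested probe sets. The groups did not overlap for 5 of the 8, where 44.7% of all tested probe sets did not overlap. With 3 arrays against 3, an exact permutation test of a single probe set cannot go below p = 0.1.

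**Figure D1:**
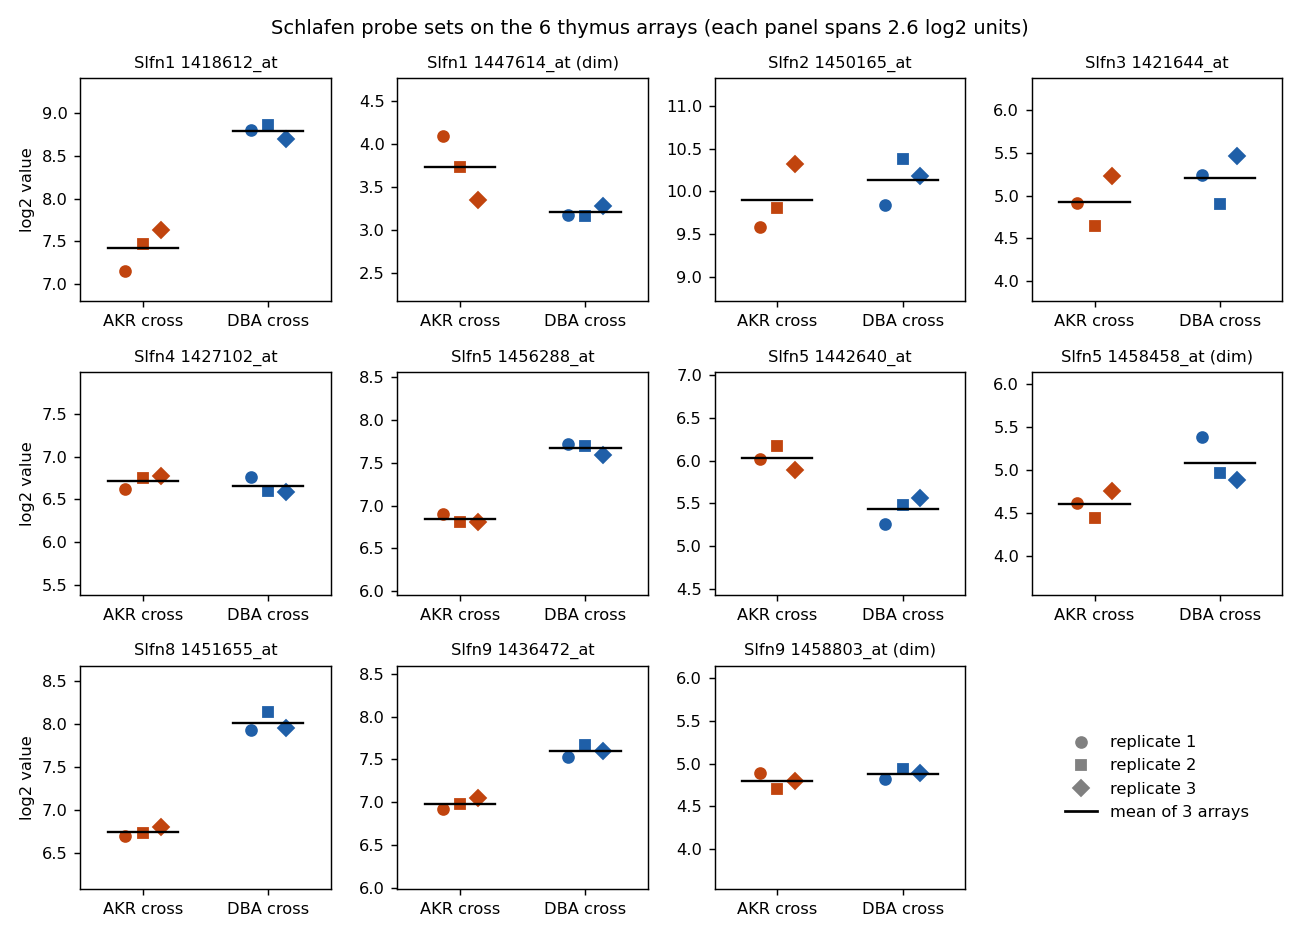
Log2 value (vertical axis) of each of the 11 Schlafen probe sets on the 3 AKR cross arrays (orange) and the 3 DBA cross arrays (blue), with symbols for replicates 1 to 3 and a line at the mean; each panel spans the same number of log2 units, and "dim" marks the 3 probe sets that were not tested. Slfn1 1418612_at, Slfn5 1456288_at, Slfn8 1451655_at and Slfn9 1436472_at have all 3 DBA arrays above all 3 AKR arrays, and Slfn5 1442640_at has the reverse.

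Slfn1, the founding short member, first described in thymocytes and able to slow T cell growth when overexpressed, was read by probe set 1418612_at. Its log2 value was 7.16, 7.47 and 7.63 on AKR replicates 1, 2 and 3, and 8.81, 8.86 and 8.69 on DBA replicates 1, 2 and 3. All DBA arrays lay above all AKR arrays, with a gap of 1.06 between the nearest, and the AKR arrays were the more spread (SD 0.24 against 0.08, n = 3 each). The difference was -1.36 ± 0.12 (SE). Of all tested probe sets, 1.21% were at least as far apart in the DBA direction. RNA of a whole thymus cannot tell fewer cells that express a gene from less of its RNA per cell. A second Slfn1 probe set, 1447614_at, was below the 40th percentile on all 6 arrays and was not tested. It read 4.10, 3.74 and 3.35 on the AKR arrays and 3.18, 3.17 and 3.28 on the DBA arrays, so it differed by 0.52 ± 0.16 (SE) the other way, at a signal near the bottom of the scale, and with no filter on dim probe sets it was called.

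Slfn2, the other short member, whose loss in mice leaves T cells unable to stay quiescent, was read by 1450165_at and did not follow Slfn1. Its log2 value was 9.58, 9.80 and 10.32 on the AKR arrays and 9.84, 10.38 and 10.18 on the DBA arrays. The groups overlapped, and the difference of -0.23 ± 0.19 (SE) was smaller than the SD within the AKR cross (0.38, n = 3) and the DBA cross (0.28, n = 3). Leaving out 1 array at a time moved this difference between -0.44 and -0.07 and gave no call. The spread of Slfn2 within a cross was thus wider than for any of the 4 genes called on their brightest probe set, whose SDs ran from 0.05 to 0.24.

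Of the intermediate members, Slfn4, known as a gene that macrophages switch on upon interferon or bacterial stimuli, was level between the crosses. Probe set 1427102_at read 6.62, 6.75 and 6.77 on the AKR arrays and 6.76, 6.60 and 6.59 on the DBA arrays, a difference of 0.06 ± 0.10 (SE) with overlapping groups. Markers of monocytes and macrophages had a mean level over 11 tested genes of 8.89 to 8.95 in the AKR cross and 8.84 to 8.90 in the DBA cross. This mean does not show how single markers differed: by their brightest probe sets, 3 of the 11 were AKR-high and 0 DBA-high. Ccr2 was not called on its brightest probe set (0.23), and its 3 other tested probe sets were DBA-high. Slfn3, best known from the gut epithelium and from T cell subsets, was dim. Probe set 1421644_at read 4.92, 4.64 and 5.23 on the AKR arrays and 5.24, 4.90 and 5.46 on the DBA arrays, and passed the filter with 1 AKR and 2 DBA arrays. The groups overlapped and the difference was -0.27 ± 0.18 (SE). A further probe set on the array carries 2 Schlafen symbols and was left out by the rule.

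Among the long members, Slfn8 showed the widest separation of the crosses. Probe set 1451655_at read 6.70, 6.73 and 6.80 on the AKR arrays and 7.93, 8.15 and 7.96 on the DBA arrays. The lowest DBA array was 1.13 above the highest AKR array, more than the full spread within either cross (0.10 and 0.22). The difference was -1.27 ± 0.09 (SE), and 1.39% of all tested probe sets were at least as far apart in this direction.

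Slfn9, the neighbour and closest relative of Slfn8 by its promoter, had the same direction and a smaller difference. Probe set 1436472_at read 6.92, 6.98 and 7.05 on the AKR arrays and 7.53, 7.67 and 7.59 on the DBA arrays, so the groups were apart by 0.48. The difference was -0.61 ± 0.09 (SE). The other Slfn9 probe set, 1458803_at, was below the 40th percentile on all arrays. It read 4.88, 4.71 and 4.80 on the AKR arrays against 4.82, 4.93 and 4.89 on the DBA arrays, with overlapping groups and a difference of -0.08 ± 0.10 (SE). Whether the probe sets of Slfn8 and Slfn9 each read only their own gene was not tested.

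Slfn5, a long member induced by interferon in many cell types, was read in opposite directions by its tested probe sets. The brighter, 1456288_at, read 6.90, 6.81 and 6.81 on the AKR arrays and 7.72, 7.70 and 7.59 on the DBA arrays, a difference of -0.83 ± 0.09 (SE). The dimmer, 1442640_at, read 6.02, 6.17 and 5.89 on the AKR arrays and 5.25, 5.49 and 5.57 on the DBA arrays, a difference of 0.59 ± 0.12 (SE). The groups did not overlap in either. The third probe set, 1458458_at, was above the 40th percentile on 1 array and not tested. It read 4.62, 4.44 and 4.75 on the AKR arrays and 5.39, 4.96 and 4.89 on the DBA arrays, a difference of -0.48 ± 0.14 (SE), and with no filter it was called as DBA-high. Of 5918 genes with at least 2 tested probe sets, 187 (3.16%) had calls in both directions, and Slfn5 is one of them. Its probe sets thus give no single direction for the gene.

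**Figure D2:**
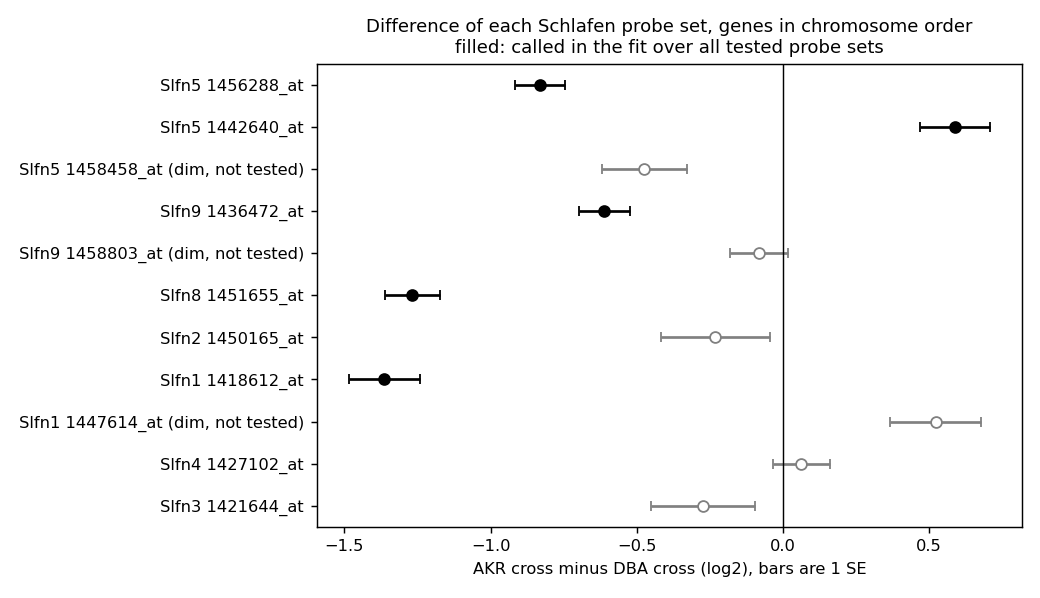
Difference of each Schlafen probe set between the crosses (horizontal axis, AKR cross minus DBA cross, log2; bars are 1 SE), with genes in chromosome order from the top; filled points were called in the fit over all tested probe sets and open points were not called or not tested. Slfn1 1418612_at (-1.36) and Slfn8 (-1.27) lie farthest to the left, and the probe sets of Slfn5 and of Slfn1 fall on both sides of 0.

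The arrays of a cross also differed among themselves in a way that several members shared. Over the brightest tested probe set of each of the 7 genes, AKR replicate 3 was the highest AKR array for 6 genes, all but Slfn5. AKR replicate 1 was the lowest AKR array for 5 genes, Slfn1, Slfn2, Slfn4, Slfn8 and Slfn9. In the DBA cross, replicate 2 was the highest for 4 genes, Slfn1, Slfn2, Slfn8 and Slfn9. How often each array was highest or lowest over all genes was not counted. This order is therefore not read as particular to the family. AKR replicate 1 also had the lowest mean level of 8 tested neutrophil markers, at 7.00 against 7.48 and 7.53 on the other AKR arrays. Among the pathway and cell type lists below, it was also the lowest AKR array for interferon response (7.82) and NK and innate-like T cells (7.40). It was the highest for thymocyte (11.79) and dendritic cell markers (7.44), and lay in between for the others. The part of other cells in the order of the arrays was not tested. Without AKR replicate 1, all 4 DBA-high probe sets of the family were still called.

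The difference was uneven along the Schlafen cluster. Slfn2 (-0.23) lies between Slfn8 (-1.27) and Slfn1 (-1.36), and Slfn4 (0.06) follows Slfn1. The pseudogene Slfn10-ps, which is no member, read 4.85, 4.81 and 5.40 on the AKR arrays and 5.32, 5.46 and 5.75 on the DBA arrays, a difference of -0.49 ± 0.17 (SE) with overlapping groups and no call. Slfn10-ps was dim, since the 40th percentile of the arrays ran from 5.21 to 5.28. All DBA arrays but, in the AKR cross, only replicate 3 read it above this, so it was tested mainly through the DBA cross. Beyond the family, the 15 nearest protein-coding genes on each side were followed. On the Slfn5 side 11 were tested, with 1 DBA-high and 2 AKR-high. The nearest tested neighbours on this side, Nle1, a ribosome assembly factor (0.38 ± 0.09, SE, adjusted p = 0.0111, limma), and Rad51d, a DNA repair gene (0.43 ± 0.10, SE, adjusted p = 0.0122, limma), were higher in the AKR cross. Rad51d had 2 other tested probe sets, and neither was called. The eosinophil chemokine gene Ccl11 was the one higher in the DBA cross (-0.53 ± 0.09, SE).

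On the Slfn14 side 10 were tested, with 4 DBA-high and 1 AKR-high. The DBA-high genes were Ap2b1, an adaptor subunit of clathrin coats (-0.35 ± 0.10, SE), the chemokine gene Ccl6 (-0.41 ± 0.12, SE), and the secreted inhibitor genes Wfdc17 (-0.34 ± 0.09, SE) and Wfdc18 (-0.71 ± 0.09, SE). The 2 other tested probe sets of Ap2b1 were not called. Taf15, an RNA-binding protein gene, was higher in the AKR cross on its brightest probe set (1.12 ± 0.16, SE), and its other tested probe set was called the opposite way. Of all 12855 genes by their brightest tested probe set, 25.0% were called, 11.9% as DBA-high and 13.1% as AKR-high. The DBA-high count of 4 on the Slfn14 side fell to 1 when DBA replicate 2 was left out, and to 2 when any of DBA replicate 1, DBA replicate 3, AKR replicate 1 and AKR replicate 3 was. The DBA-high count of 1 on the Slfn5 side became 2 without DBA replicate 3. With a gene's tested probe sets averaged, the AKR-high counts were 0 on the Slfn14 side and 1 on the Slfn5 side.

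**Figure D3:**
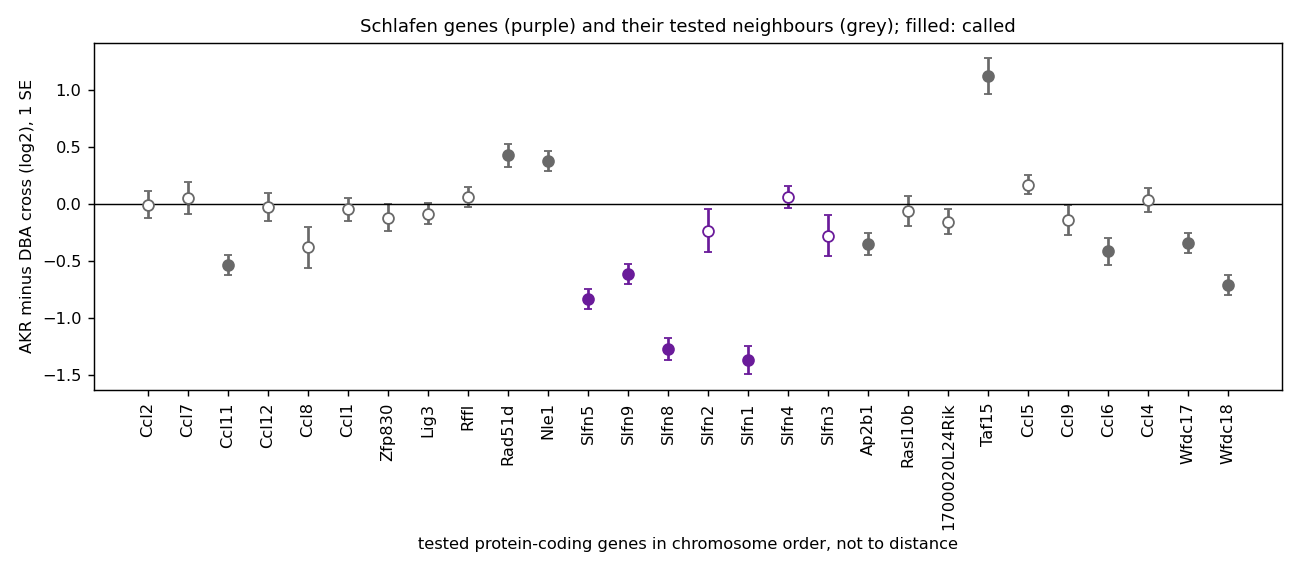
Difference between the crosses (vertical axis, AKR minus DBA, log2; bars are 1 SE) of the Schlafen genes (purple) and of their tested protein-coding neighbours (grey), each by its brightest tested probe set, in chromosome order and not to distance; filled points were called. Slfn5, Slfn9, Slfn8 and Slfn1 lie below the nearest tested neighbours on both sides, Nle1 at 0.38 and Ap2b1 at -0.35. Slfn2 (-0.23), Slfn3 (-0.27) and Slfn4 (0.06) lie above Ap2b1, and the farther neighbour Wfdc18 (-0.71) lies below Slfn9 (-0.61).

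Genes of the type I interferon response, the signal known to induce several Schlafen genes, leaned to the DBA cross. Of 30 listed genes 27 were tested, with 10 DBA-high, 1 AKR-high and 16 not called (40.7% called). Over all 12855 genes 25.0% were called, 11.9% as DBA-high and 13.1% as AKR-high. The list had a median difference of -0.23, against 0.03 over all genes. Trim30a, an interferon-induced restraint on Toll-like receptor signalling, read 8.33, 8.31 and 8.48 on the AKR arrays and 9.65, 9.70 and 9.71 on the DBA arrays, with no overlap (-1.31 ± 0.07, SE, adjusted p = 8.07e-06, limma). The oligoadenylate synthetase-like gene Oasl2 (-0.96 ± 0.09, SE) and Eif2ak2, the RNA-activated kinase PKR (-0.47 ± 0.09, SE), were also higher in the DBA cross. Rtp4 (-0.43), Ifit3 (-0.41) and Ifit2 (-0.30), all interferon-induced, were DBA-high too. The AKR-high gene was Bst2, for the virion-retaining protein tetherin (0.54 ± 0.09, SE). The DBA-high count of 10 fell to 4 without AKR replicate 1 and to 6 if either DBA replicate 1 or DBA replicate 2 was left out. The AKR-high count of 1 became 2 without DBA replicate 1. The response element of Slfn5, Slfn8 and Slfn9 was present in 12 of 21 listed genes with a promoter window (57.1%), against 3.99% of all 27025 genes. Of these 12, 4 were DBA-high (Trim30a, Eif2ak2, Ifit3 and Rsad2), 1 was AKR-high (Bst2), 6 were not called and 1 had no tested probe set. Among the listed genes whose window lacks the element, 3 were DBA-high (Oasl2, Ifit2 and Cmpk2) and 0 AKR-high. A further 5 were not called and 1 had no tested probe set. A link between the element and the direction was not tested. Of the members farthest apart between the crosses, Slfn8 has these letters in its window and Slfn1 does not.

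Genes of late thymocyte maturation and quiescence, the state in which Slfn2 acts, went both ways. Of 20 listed genes 19 were tested, with 4 DBA-high, 4 AKR-high and 11 not called (42.1% called). Over all genes 25.0% were called, 11.9% as DBA-high and 13.1% as AKR-high. The list had a median difference of 0.09, against 0.03 over all genes. DBA-high were Ms4a4b (-0.71 ± 0.10, SE) and Ms4a6b (-0.29 ± 0.08, SE), membrane protein genes of mature T cells, Il7r, the interleukin 7 receptor (-0.62 ± 0.16, SE), and Dapl1 (-0.54 ± 0.10, SE). AKR-high were Foxp1, a transcription factor of T cell quiescence (0.99 ± 0.07, SE, adjusted p = 3.71e-05, limma), Klf2, the regulator of thymic egress (0.37 ± 0.10, SE), and the survival GTPase genes Gimap3 (0.38 ± 0.10, SE) and Gimap5 (0.38 ± 0.12, SE). The DBA-high count of 4 fell to 2 without AKR replicate 2 or without DBA replicate 2. The AKR-high count of 4 fell to 1 without AKR replicate 3, and to 2 if DBA replicate 1 or DBA replicate 3 was left out.

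**Figure D4:**
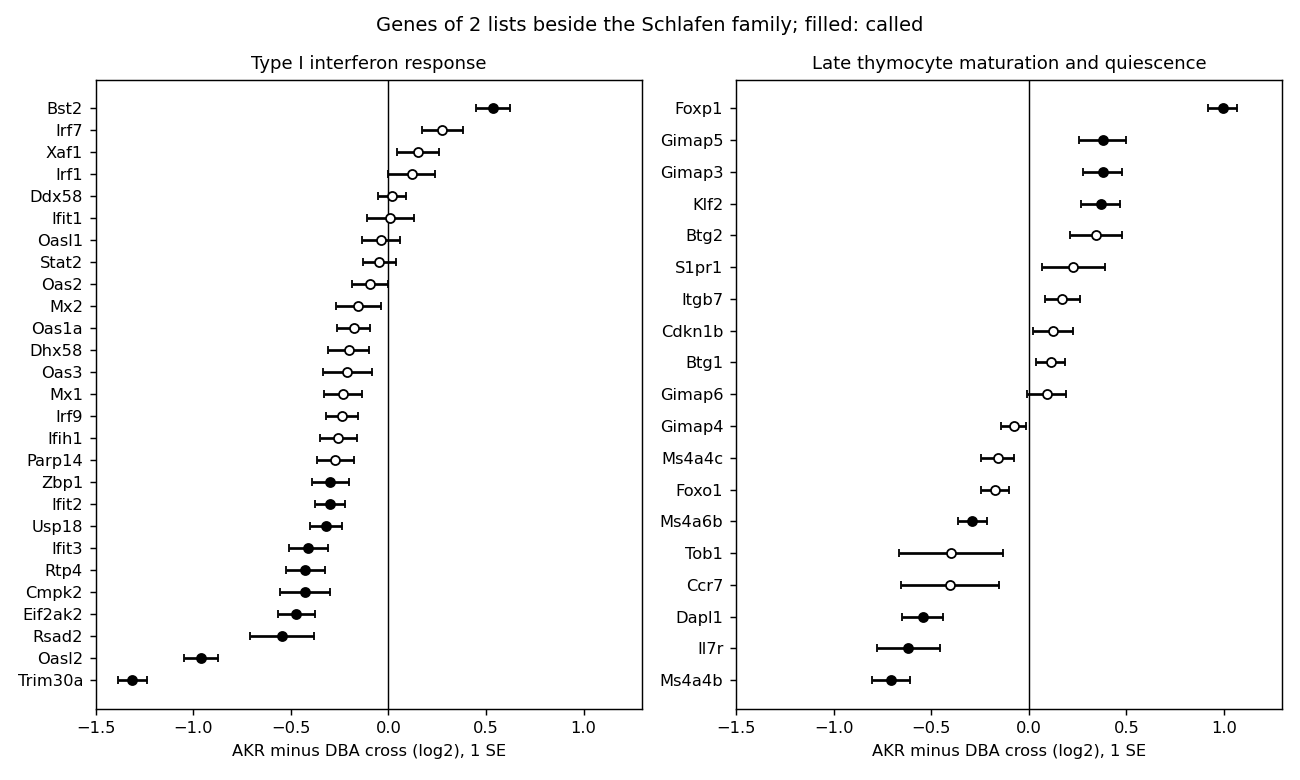
Difference between the crosses (horizontal axis, AKR minus DBA, log2; bars are 1 SE) of the tested genes of the type I interferon list (left) and of the late maturation and quiescence list (right), each by its brightest tested probe set; filled points were called. On the left 10 of 27 genes were called below 0 and 1 above it, and on the right 4 of 19 were called on each side.

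The other lists are given beside the 25.0% of all genes called, and their part in the Schlafen differences was not tested. Of 27 tested cell cycle genes, 13 were AKR-high, with mean levels of 10.41 to 10.54 in the AKR cross and 10.23 to 10.34 in the DBA cross, and 8 were AKR-high without the variance trend. Limma called 0 of them DBA-high, and 1 lay in that direction at an unadjusted p under 0.05. This count became 1 without DBA replicate 3, with array weights, with the replicate number as a block or with probe sets averaged. B cell markers had 5 of 7 AKR-high, at 7.35 to 7.48 against 6.91 to 7.04 in the DBA cross. The count was 3 without AKR replicate 1, AKR replicate 3 or DBA replicate 3, and also with the filter at the 60th percentile. Among the AKR-high, Pax5 and Cr2 each passed the filter with 3 AKR arrays and 1 DBA array, so mainly through the cross where they were high. Neutrophil markers had 4 of 8 DBA-high, at 7.00 to 7.53 in the AKR cross against 7.63 to 7.86, and 2 if AKR replicate 1, AKR replicate 2, DBA replicate 1 or DBA replicate 3 was left out. Markers of NK and innate-like T cells had 3 of 9 DBA-high and 1 AKR-high, at 7.40 to 7.53 against 7.76 to 7.96. Their median difference was -0.10. DBA-high were Zbtb16 (-2.09), Icos (-0.87) and Cxcr6 (-0.40), and AKR-high was Klrd1 (0.40). Of the rest, Ncr1 (0.22), Nkg7 (0.20) and Gzma (0.11) lay above 0, and Eomes (-0.67) and Prf1 (-0.10) below. The DBA-high count was 2 whichever array was left out, except DBA replicate 3, where it stayed at 3. Monocyte and macrophage markers had 3 of 11 AKR-high (27.3% called) and, by limma, 0 DBA-high, with 2 in that direction at an unadjusted p under 0.05. The 0 became 1 without DBA replicate 1, with array weights or with the block, and 2 with probe sets averaged. Dendritic cell markers had 2 of 9 AKR-high (22.2% called), at 7.31 to 7.44 against 7.30 to 7.40, and 1 whichever array was left out. Thymocyte markers had 1 of 13 in each direction (15.4% called), and with 1 array left out the DBA-high count ran from 0 (AKR replicate 2, DBA replicate 1 or DBA replicate 2) to 2 (AKR replicate 1) and the AKR-high count was 2 without AKR replicate 2. No marker is at 0 on this scale.

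By pattern over the 6 arrays, the 5 non-member genes most like Slfn1 1418612_at were Enpp5, Hdac4, H2-DMb2, S100a14 and Yaf2, with Pearson correlations from 0.996 to 0.998 as a description. All 5 were lower in the AKR cross, with differences from -0.98 to -0.43. The arrays fall into 2 groups, so the gap between the crosses sets most of this likeness: 453 of 12847 genes exceeded 0.95. For Slfn2 the most alike were Strbp, Nr3c1, the glucocorticoid receptor gene, Ccn2, Slc46a2 and Jade3, at 0.963 to 0.988, and 8 genes exceeded 0.95. These 5 had differences between the crosses from -0.26 to -0.05.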

How the data were processed

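Thymus RNA was labelled with biotin by the Affymetrix procedure, per the labels' protocols. The authors deposited log2 values per probe set and array. Per the submitters' processing notes the tools were MAS5 and RMA, but the sources used here do not give which one produced these values. RMA summaries compress the differences of dim probe sets.

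No normalization was added. After 64 control probe sets were dropped, the filter kept 27385 of 45037. Symbols came from the platform annotation, and all 11 members matched a RefSeq gene table (GRCm38.p6) by Entrez identifier. That table gave names and gene order only, since the build behind the array annotation is not given. A gene outside the family is represented by its brightest tested probe set with 1 symbol. Differences came from limma 3.58.1 (lmFit, then eBayes with a variance trend; R 4.3.3). Tests were two-sided, p-values were adjusted by Benjamini-Hochberg across every tested probe set, and the fit was tested on simulated data. SEs of untested probe sets come from the fit without the filter. Biopython 1.88 aligned the promoters and matplotlib 3.10.9 drew the figures (Python 3.11.15).

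The members, lists, motifs and alternatives were chosen with earlier results of these data known. All members are named; from the interferon and late maturation lists up to 6 called genes per direction with the smallest adjusted p, all called neighbours, and the 5 genes most like Slfn1 and Slfn2. Cell cycle and marker lists are given by counts and levels, with the tested genes of the NK and innate-like T cell list also named. Pax5, Cr2 and Ccr2 are named for the limits of their probe sets. The alternatives were 2 other filters, quantile normalization, median centring, a floor, no variance trend, array weights, a block for replicate number, leaving out each array, and, for lists, averaging the probe sets of each gene.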

Additional observations from a re-analysis of the deposited data

How the results depend on the processing

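Of 110 alternative values of the Schlafen differences, 108 kept their direction and their side of the threshold, and the 4 DBA-high probe sets were called in each of the 14 settings. The other 2 are dim probe sets that were called once the filter was dropped, Slfn1 1447614_at (AKR-high) and Slfn5 1458458_at (DBA-high). The filters, the floor, the variance trend and the block left each difference as it was, so under them only a call could change. Settings that filtered a probe set out are not among the 110: Slfn3 was kept in 10 settings and each untested probe set in 1. The 1 AKR-high probe set, Slfn5 1442640_at, was filtered out at the 60th percentile, which left 0. Without a filter the counts were thus 5 DBA-high and 2 AKR-high. Leaving out 1 array gave 4 and 1 throughout. Over all probe sets, the 3338 AKR-high calls ran from 2128 to 2952 with 1 array left out, moving by over 1.5 times when the array left out was AKR replicate 1 (2187), AKR replicate 2 (2198), DBA replicate 2 (2173) or DBA replicate 3 (2128), while the 4111 DBA-high calls ran from 2773 to 3701. With the replicate number as a block, 5329 were DBA-high and 4510 AKR-high, and the block changed no Schlafen call. Deviations of same-numbered arrays correlated at 0.39, 0.07 and 0.37, and those of differently numbered arrays from -0.38 to 0.07. The number was not used as a pairing in the main fit, and what it stands for was not tested. Counts of called list genes moved by over 1.5 times in 55 of 330 list, direction and setting combinations. Signal limits the dim probe sets: 3 members were not tested, and Slfn3 lay near the filter. The cause of these changes was not tested beyond the filters' own construction.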
